A study of Mus musculus with 2 samples.

Results

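The 9 genes described here encode the subunits of the AMPA and kainate classes of glutamate receptor: Gria1, Gria2, Gria3 and Gria4 for AMPA receptors, and Grik1, Grik2, Grik3, Grik4 and Grik5 for kainate receptors. They were chosen by name and are 9 of the 21938 protein-coding genes of the GENCODE M21 annotation of mm10, the C57BL/6J mouse reference genome. Open chromatin was mapped by DNase-seq, which reads where the nuclease DNase I cuts DNA in nuclei. The tissue was left cerebral cortex from 2 female B6CASTF1/J mice aged 36 days, with 1 library from each animal. B6CASTF1/J mice are hybrids of the first generation, so every cell carries a genome of each parental strain, and the deposited calls do not separate the alleles. The labels number the animals differently under a shared donor entry and call the libraries replicate 1 and replicate 2. That the animals are separate is taken from their numbers and is an assumption. The libraries form 1 group, so there was no condition to compare and no test was made. Values are given for each mouse, and the gap between the mice is the only measure of error.

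AMPA receptors are tetramers of GluA subunits and carry most of the fast excitatory transmission of the cortex, and their subunit makeup sets calcium entry and the kinetics of the current. Kainate receptors are tetramers of GluK subunits that act on both sides of the synapse; GluK1 to GluK3 can form channels on their own, whereas GluK4 and GluK5 bind kainate with high affinity and need a partner from the other group. DNase I cuts readily at active promoters and at distal regulatory elements, and a footprint is a short stretch inside an open site that is cut less often than its surroundings, as happens under some bound proteins.

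Peaks are the shorter of the 2 peak lists deposited for each library, with 69208 peaks in replicate 1 and 69128 in replicate 2. Peak height is the authors' own signal value for each peak, on a scale with an unstated factor for each library. Peaks of the mice that overlapped by at least 1 bp were merged into a region, and 58.6% of the 83423 merged regions of the genome had a peak in both mice. Each gene was read over its body plus 10 kb on each side. As a check of the tissue label, 5 of 5 markers of cortical excitatory neurons had a promoter region in both mice, as did 4 of 5 of astrocytes, 2 of 5 of interneurons and 2 of 5 of oligodendrocytes. The count was 0 of 5 for microglia and 0 of 5 for liver, and 1 of 5 for muscle (Ckm, 4.79 in replicate 1 and 1.56 in replicate 2). The share over all protein-coding genes was 61.1%, and lists of 5 genes make this a coarse check. A peak does not tell whether few cells are widely open or many cells a little, so cell number and openness per cell cannot be told apart in this bulk tissue.

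All 9 receptor genes had a promoter region in both mice, meaning a region with a peak in each mouse within 1 kb of an annotated start of the gene. Over all protein-coding genes the share was 61.1%. The promoters were open but mostly low: 8 of 9 had a highest promoter peak below the median of all genes with a promoter region in replicate 1 (median 4.10), and 8 of 9 in replicate 2 (median 2.94). In each mouse 5 of 9 were below the lower quartile (2.29 in replicate 1 and 1.63 in replicate 2), and these were the same genes, Gria1, Gria3, Grik1, Grik3 and Grik5. The genes above the median were Grik4 in replicate 1 and Gria2 in replicate 2.

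**Figure D1:**
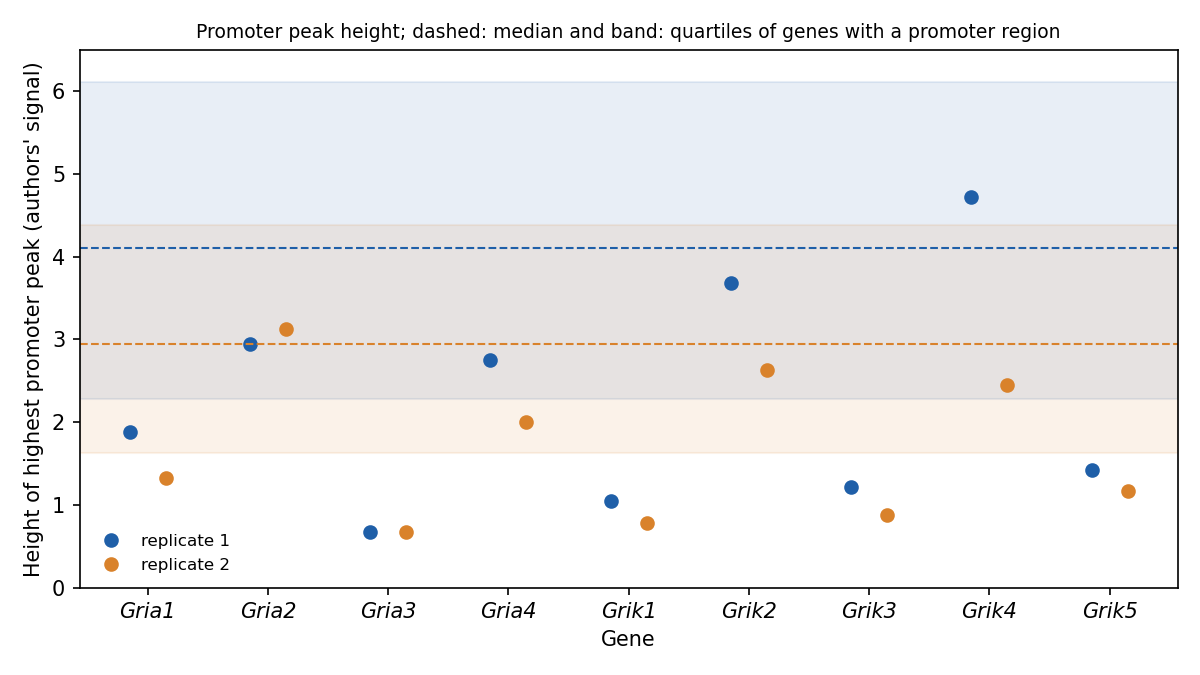
Height of the highest promoter peak (authors' signal, vertical axis) for each of the 9 genes, one point per mouse; dashed lines are the medians and bands the quartiles over protein-coding genes with a promoter region, in the colour of the replicate. Gria3 is lowest in both mice (0.675 and 0.668), and only Grik4 in replicate 1 and Gria2 in replicate 2 lie above the median of that mouse.

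Gria2 (ENSMUSG00000033981.14, chr3:80681450-80802835, minus strand) encodes GluA2, the subunit whose edited form keeps calcium out of AMPA receptors. Its promoter peak was 2.95 in replicate 1 and 3.12 in replicate 2, the highest of the AMPA genes in both mice. Among genes with a promoter region it was at percentile 33.9 in replicate 1 and 53.4 in replicate 2. The region, chr3:80802641-80803040, spans 6 of its 7 annotated starts, and both mice had 5 footprints there that overlapped one of the other mouse. The 205 bases of it before the 5′-most start, chr3:80802836-80803040, are shown because they are the part of the strongest AMPA promoter outside the transcript. Here and below, sequences run 5′ to 3′ on the strand of the gene, from the GRCm38 reference, and capitals mark bases inside a footprint in both mice unless stated.
Gria2 promoter: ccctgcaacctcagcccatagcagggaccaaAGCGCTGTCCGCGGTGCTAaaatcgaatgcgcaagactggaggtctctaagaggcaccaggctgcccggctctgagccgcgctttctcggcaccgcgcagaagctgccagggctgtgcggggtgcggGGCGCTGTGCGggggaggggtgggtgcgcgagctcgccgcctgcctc
The stretch is 68.8% G and C with 19 CpG dinucleotides, and 30 of its bases lie in footprints of both mice, in 2 runs. It holds the letters of RE1, the site of the factor REST, on the opposite strand, and these overlap the first of the runs. They are not wholly inside the central 300 bp of the region, so the motif search did not count them. None of the other motifs searched was found in the stretch.

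The other regions of Gria2 lie close behind the start. Region chr3:80800921-80801520, 1.614 kb into the gene, had heights of 1.90 and 1.60, and region chr3:80800301-80800640, 2.364 kb in, had 1.54 and 1.16. Both are in intron 2 of the longest annotated form, but all 600 and 340 of their bases lie in annotated exons of Gria2, counted over all its transcripts. The 118.851 kb that remain of the gene body, 97.9% of it, held no region called in both mice, so all 3 regions of Gria2 sit at its 5′ end. With the longer peak lists Gria2 had 4 regions in both mice, whose places were not read.

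Gria4 (ENSMUSG00000025892.16, chr9:4417896-4796234, minus strand) encodes GluA4, a subunit known from fast-spiking interneurons. Its highest promoter peak was 2.75 in replicate 1 and 2.00 in replicate 2, on chr9:4795841-4796340 over exon 1. The next region, chr9:4795521-4795840 in intron 1, had 2.26 and 1.71. Including 2 weaker regions, 4 of its 5 regions in both mice were at its own starts. The fifth, chr9:4639262-4639458 in intron 4, was low in both mice (0.529 and 0.606). It is shown because it holds the only AP-1 motif found that overlapped footprints of both mice. The search read the central 300 bp of each region of the 9 genes. Capitals mark the motif, at chr9:4639378-4639384, in the centre of chr9:4639368-4639394.
Gria4 AP-1 match: cacactgtggTGACTCAgtgccagcac
AP-1 is the Fos and Jun family of factors, several of which are induced by neuronal activity. The motif letters searched were TGANTCA.

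Gria1 (ENSMUSG00000020524.16, chr11:57011387-57330244, plus strand) encodes GluA1, a main subunit of AMPA receptors in cortical pyramidal cells. Its promoter region, chr11:57011701-57011940 in exon 1, had heights of 1.88 in replicate 1 and 1.33 in replicate 2, at percentiles 18.9 and 18.1. An intronic region was higher than the promoter in both mice: chr11:57038881-57039120 in intron 2, 27.614 kb from the first start, reached 2.59 and 2.00. Region chr11:57030552-57030733, also in intron 2, had 1.24 and 1.49. The region of intron 2 with the higher peaks is shown because it is the highest distal region of the AMPA genes.
Gria1 intron 2: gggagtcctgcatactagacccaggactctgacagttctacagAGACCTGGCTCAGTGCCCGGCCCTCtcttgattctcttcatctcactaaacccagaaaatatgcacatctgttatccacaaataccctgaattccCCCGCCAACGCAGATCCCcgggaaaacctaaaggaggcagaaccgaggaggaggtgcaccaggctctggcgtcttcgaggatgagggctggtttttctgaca
Its 43 bases in footprints of both mice form 2 runs. It holds 1 NeuroD E-box (CAGATG, here on the opposite strand, from position 109 counted from 1 at the 5′ end) outside those runs. NeuroD factors are basic helix-loop-helix proteins of excitatory neurons.

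The remaining regions of Gria1 in both mice lie toward the 3′ end. Region chr11:57271661-57272120 in intron 11 was 1.02 in replicate 1 and 1.5 in replicate 2. Region chr11:57310881-57311060 in intron 14 went the other way, with 2.27 and 0.881. Between intron 2 and intron 11 a stretch of 232.54 kb had no region called in both mice. It did hold footprints of both mice, as at chr11:57044376-57044384. With the longer peak lists Gria1 had 15 regions in both mice, whose places were not read.

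Gria1 also held the widest disagreement between the mice. Replicate 2 had 21 peaks at chr11:57323201-57334065, which covers the end of intron 15, exon 16 and the sequence just downstream, 10.865 kb in all. Their heights ran from 0.0841 through a median of 0.151 to 0.359, so the highest was at percentile 5.81 of the list of replicate 2. Replicate 1 had 0 peaks there in either of its lists and 0 footprints against 35 in replicate 2. It also had 0 bases under a false discovery rate of 0.05 of the cut rate, against 9331 bases in replicate 2. With this run, 7 of 33 Gria1 regions were called in both mice (21.2%), and without it 7 of 12 (58.3%).

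Such runs occur elsewhere in both libraries. Defined, after the data were seen, as at least 10 neighbouring peaks all in the lowest 10% of heights of their list, there were 111 runs with 1731 peaks in replicate 1 and 68 runs with 988 peaks in replicate 2. A peak of the other mouse met 4.79% of the peaks in runs of replicate 1 and 5.26% in runs of replicate 2. The run at Gria1 was the only one over the 9 genes. What produced it was not tested, and it is left out of what is said about Gria1 regions in both mice, since none of its peaks was shared.

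**Figure D2:**
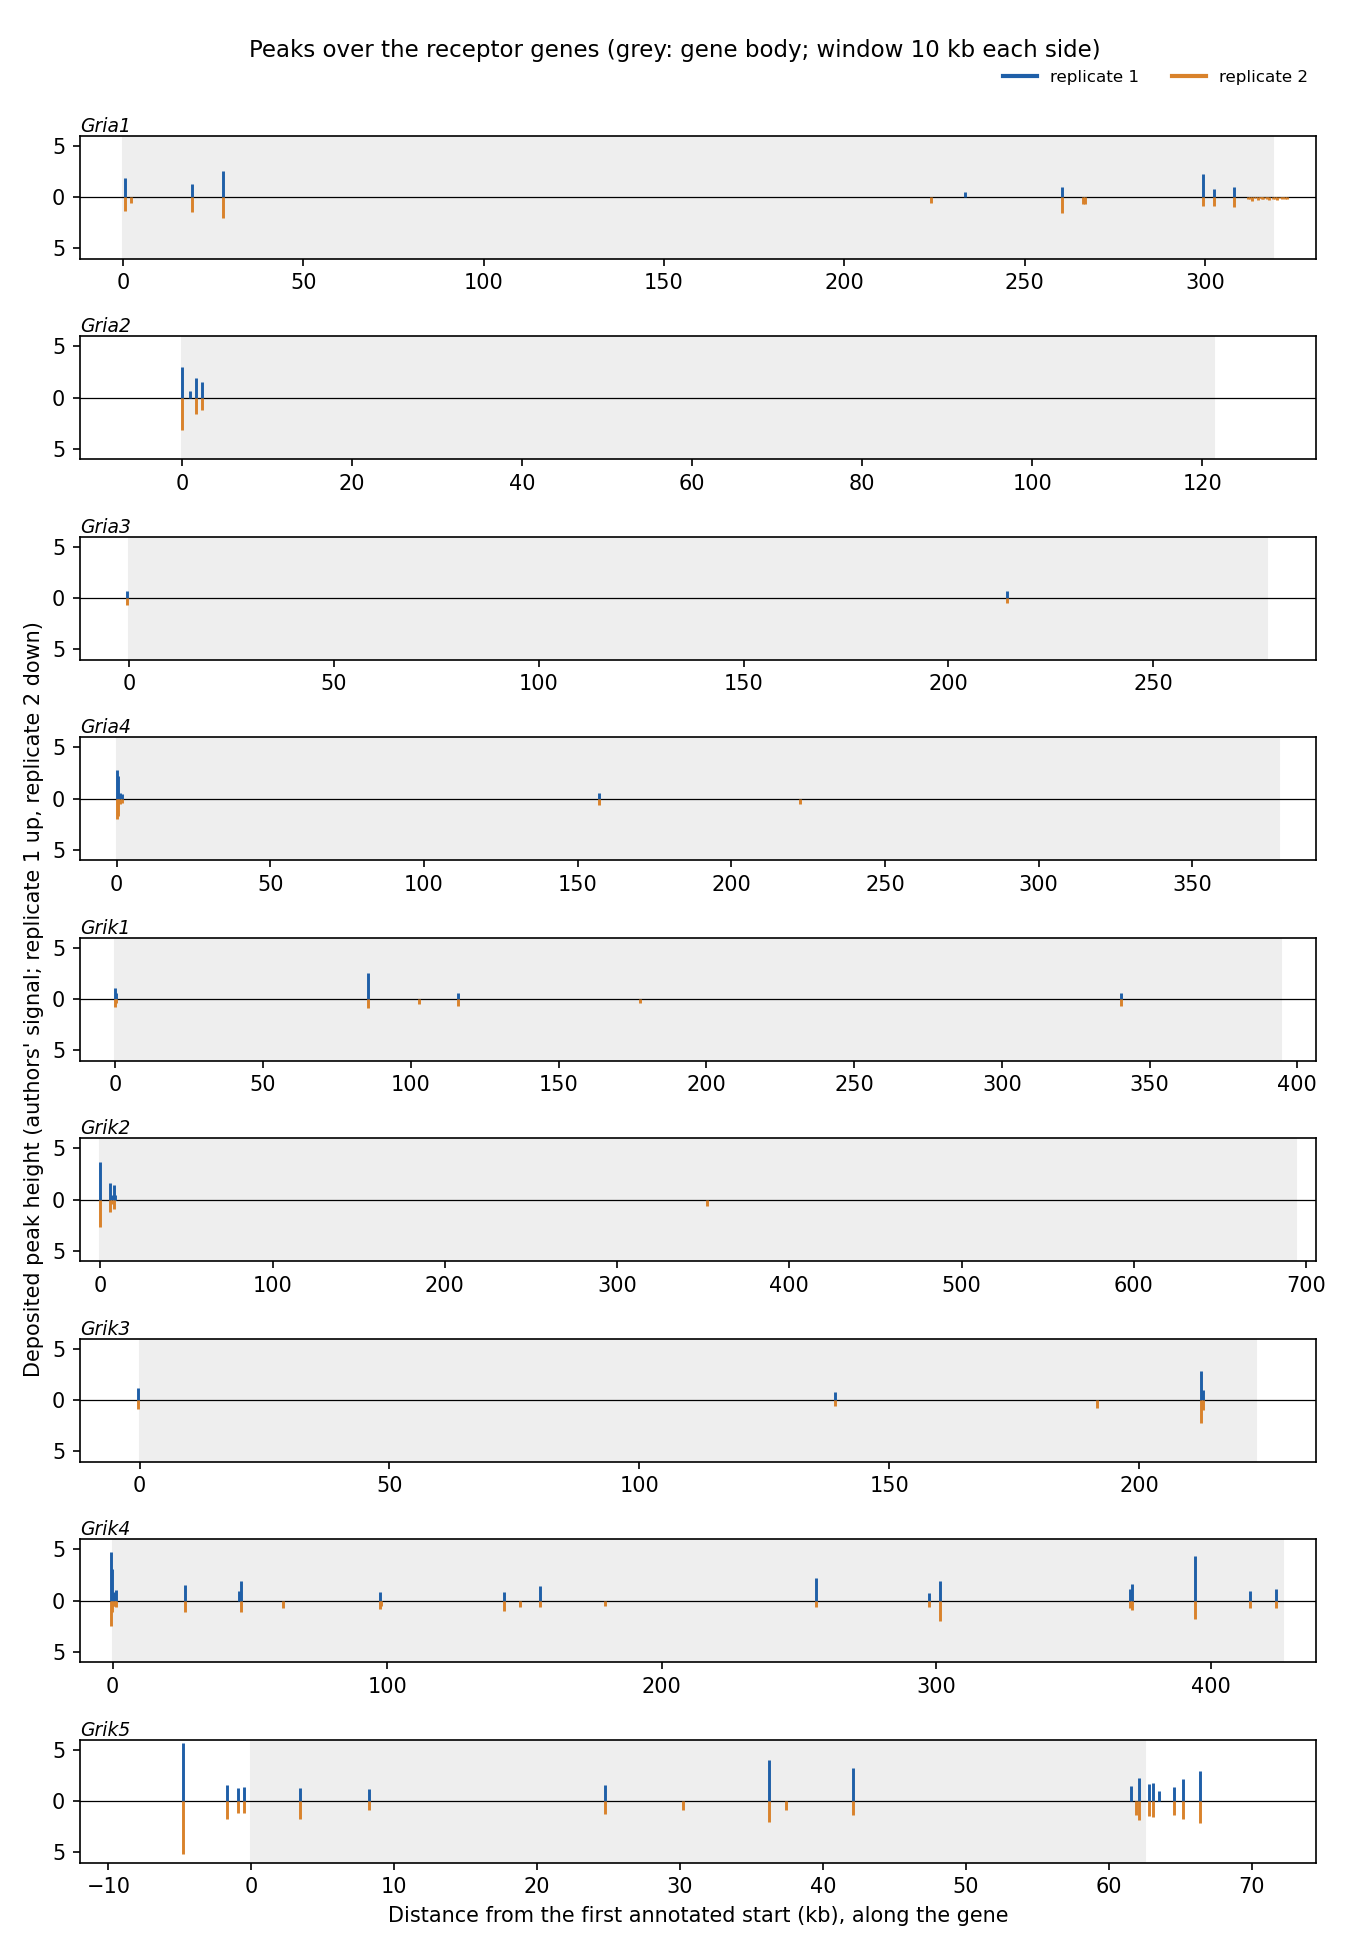
Peaks over each gene by distance from its first annotated start (kb, horizontal axis, each gene on its own scale), with the deposited height of replicate 1 drawn upward and of replicate 2 downward; grey marks the gene body. Peaks of Gria2 and Grik2 cluster at the 5′ end, those of Grik4 run along the gene, and the low peaks at the 3′ end of Gria1 appear in replicate 2 only.

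Gria3 (ENSMUSG00000001986.16, chrX:41400854-41678601, plus strand) encodes GluA3 and is the X-linked member. It had the lowest promoter of the 9 genes in both mice, 0.675 in replicate 1 and 0.668 in replicate 2, at percentiles 1.60 and 3.98. The region, chrX:41400330-41400460, lies upstream of all annotated starts. The only other region in both mice, chrX:41615099-41615247 in intron 11, had 0.669 and 0.426. Both regions lie below the median height of their list in each mouse. The promoter region is shown with the bases up to 5 past an NRF1 motif (GCATGCGC, at chrX:41400467-41400474), because that motif overlaps a footprint of each mouse. NRF1 is a factor that binds CpG-rich promoters of widely expressed genes.
Gria3 promoter: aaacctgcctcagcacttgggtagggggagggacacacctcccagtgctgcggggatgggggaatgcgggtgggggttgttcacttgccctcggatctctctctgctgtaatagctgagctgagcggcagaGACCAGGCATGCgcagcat
The printed stretch is chrX:41400330-41400479, and the motif starts at position 138 of it. The motif and the capitals lie past the end of the called region, inside which replicate 2 had 0 footprints. The printed stretch holds 5 CpG dinucleotides.

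Among the kainate genes of the first group, Grik2 (ENSMUSG00000056073.16, chr10:49094833-49788766, minus strand), which encodes GluK2, had the highest promoter. The peak on chr10:49788661-49788920 was 3.68 in replicate 1 and 2.63 in replicate 2, at percentiles 44.3 and 44.5. This region also lies within 1 kb of a start of Gm48123. A second promoter region, chr10:49782641-49783760, covers starts 5357 and 5507 bases into the gene and was lower, 1.61 and 1.19. The bases of the higher region before the 5′-most start, chr10:49788767-49788920, are shown for comparison with the Gria2 promoter.
Grik2 promoter: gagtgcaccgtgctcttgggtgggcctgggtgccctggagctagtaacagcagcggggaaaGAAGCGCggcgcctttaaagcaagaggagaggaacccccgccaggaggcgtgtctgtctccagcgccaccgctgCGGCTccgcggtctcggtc
They are 66.9% G and C with 13 CpG dinucleotides, and 12 of their 154 bases lay in footprints of both mice. The highest distal region, chr10:49780461-49780760 in intron 2, had 1.44 and 0.875. All 4 regions of Grik2 in both mice lay within 8.155 kb of the first start, and the other 685.628 kb of the gene body, 98.8% of it, held none. With the longer peak lists Grik2 had 8 regions in both mice, whose places were not read. Grik2 is the longest of the 9 genes.

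Grik1 (ENSMUSG00000022935.16, chr16:87895900-88290265, minus strand) encodes GluK1, and Grik3 (ENSMUSG00000001985.9, chr4:125490700-125714173, plus strand) encodes GluK3. Their promoters were low. The Grik1 promoter peak on chr16:88290161-88290540 was 1.05 in replicate 1 and 0.780 in replicate 2. That of Grik3 on chr4:125490000-125490680 was 1.22 and 0.875. Each gene had a distal region above its promoter in both mice. In Grik1 it was chr16:88204521-88204680 in intron 1, at 2.57 in replicate 1 but 0.881 in replicate 2. In Grik3 it was chr4:125702981-125703200 in intron 13, at 2.89 and 2.26, so the mice differed less there.

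Of the high-affinity kainate genes, Grik4 (ENSMUSG00000032017.14, chr9:42518135-42944493, minus strand) encodes GluK4. It had the most regions of the 9 genes, 17 in both mice, and the highest promoter peak in replicate 1. That peak, on chr9:42944821-42945040, was 4.72 in replicate 1 and 2.45 in replicate 2, at percentiles 58.0 and 41.0. A neighbouring region, chr9:42944441-42944740, had 3.13 and 1.08. The region of the highest peak lies 328 bases before the first start and is shown because 62 of its 220 bases are in footprints of both mice, in 3 runs.
Grik4 promoter: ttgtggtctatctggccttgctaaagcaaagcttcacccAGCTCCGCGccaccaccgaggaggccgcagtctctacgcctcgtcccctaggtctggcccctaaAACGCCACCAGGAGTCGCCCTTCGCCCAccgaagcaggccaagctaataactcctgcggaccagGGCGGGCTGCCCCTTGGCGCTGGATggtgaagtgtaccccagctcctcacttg
An Sp1 motif (GGGCGGG) from position 167 overlaps the start of the last of these runs. Sp1 binds GC boxes of many promoters.

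Regions of Grik4 were spread over the whole gene, and the longest stretch of the gene body without one was 100.16 kb, 23.5% of its length. The highest distal region in replicate 1 was chr9:42550261-42550460, mostly in intron 15 with 54 bases in the neighbouring exon. It was 4.34 in replicate 1 and 1.77 in replicate 2. In replicate 2 the highest was chr9:42642941-42643160 in intron 8, at 2.04, against 1.88 in replicate 1. The intron 15 region is shown because its heights approach those of the promoter and because footprints of both mice cover 70 of its 200 bases. An Sp1 motif from position 119 overlaps the end of the first run.
Grik4 intron 15: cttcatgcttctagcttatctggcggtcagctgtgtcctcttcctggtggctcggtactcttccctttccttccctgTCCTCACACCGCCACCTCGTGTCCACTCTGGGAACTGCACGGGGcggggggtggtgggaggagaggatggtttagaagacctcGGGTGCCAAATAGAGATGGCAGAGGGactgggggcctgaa
A start of another gene, Gm24420, lies at 1 of the 17 regions.

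Grik5 (ENSMUSG00000003378.9, chr7:25009849-25072346, minus strand) encodes GluK5 and is the shortest member. It had 15 regions in both mice, of which 6 touched the gene body; the others lay in the flanks. The highest peak of the whole set, 5.65 and 5.15 on chr7:25076861-25077360, is at the start of Zfp574 and not of Grik5. The Grik5 promoter peaks were low, 1.42 in replicate 1 and 1.17 in replicate 2, and the regions that hold them, chr7:25072669-25072987 and chr7:25073075-25073418, are also within 1 kb of a Zfp574 start. The highest distal region, chr7:25036041-25036240 in intron 12, reached 4.05 and 2.05 and is shown because it holds a CTCF motif that overlaps footprints of both mice.
Grik5 intron 12: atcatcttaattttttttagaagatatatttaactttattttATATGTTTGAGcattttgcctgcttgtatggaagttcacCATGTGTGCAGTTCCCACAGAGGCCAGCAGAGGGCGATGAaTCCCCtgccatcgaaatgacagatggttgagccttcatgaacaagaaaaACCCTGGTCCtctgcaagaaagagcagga
The CTCF match starts at position 105. It sits in the longest run of capitals, and the stretch holds 2 CpG dinucleotides.

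CTCF, a zinc finger protein that anchors chromatin loops, had a match in the central 300 bp of 3 of the 62 regions. There was 1 each in Grik3, Grik4 and Grik5, all distal. All 3 overlapped footprints of both mice, but how often matches do so over the genome was not counted. The 3 matches are aligned here with 10 bases on each side, with the match in capitals, at chr4:125703544-125703555, chr9:42573320-42573331 and chr7:25036125-25036136.
Grik3 CTCF match: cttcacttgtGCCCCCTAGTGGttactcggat
Grik4 CTCF match: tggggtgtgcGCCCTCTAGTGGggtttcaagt
Grik5 CTCF match: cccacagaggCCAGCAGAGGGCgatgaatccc
Grik3 and Grik4 carry the match in the opposite orientation along their gene to Grik5. The regions had heights of 0.991 and 0.914 in Grik3, 1.64 and 0.920 in Grik4, and 4.05 and 2.05 in Grik5. Windows of 300 bp at distal regions held the motif in 12.6% of 27407 cases over the genome, and 3 of 41 distal windows of the 9 genes did.

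Other motifs were searched on both strands of the same windows. The NeuroD E-box was in 16 of 41 distal windows, against 31.8% of distal windows of the genome. Of its 20 matches in all windows, 6 overlapped footprints of both mice, a share not counted over the genome. The AP-1 motif was in 6 of 41, against 14.9%. At starts, the Sp1 motif was in 6 of 21 windows, against 39.2%, and the NRF1 motif in 1 of 21, against 4.15%. How often AP-1, Sp1 and NRF1 matches overlap footprints of both mice over the genome was not counted either. The RFX motif (GTTGCC) was in 7 of 41 distal windows, against 13.7%. ETS (CCGGAAG) and T-box (AGGTGTGA) motifs were in 2 of 62 windows each, against 6.82% and 1.15% of all windows. CRE (TGACGTCA), EGR (GCGTGGGCG), YY1 (AAGATGGCG), MEF2 and the REST site RE1 were in 0 of 62, against 1.5%, 0.775%, 1.32%, 2.43% and 1.18% of all windows. The left part of RE1 (TTCAGCACC), which overlaps the full RE1 motif, was in 0 of 62 as well, against 0.497%. With shares this low, 62 windows cannot show a difference. The windows also leave out the ends of regions wider than 300 bp. The RE1 letters in the Gria2 promoter region lie mostly in such an end and are not in the RE1 count. A match describes letters, not binding.

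Over the 9 genes, 106 merged regions were found in 3076.962 kb, 62 of them in both mice, 6 in replicate 1 only and 38 in replicate 2 only. Of the 62, 18 were at a start of the gene itself, 3 at a start of another gene and 41 away from any start. Over the genome, 27407 of the 48886 regions in both mice were away from any start. Of the 41 over the 9 genes, 34 were in introns, 2 in exons, 1 upstream and 4 downstream. Among them 36 held no exon base of any annotated transcript of their gene. Median height at own starts was 1.34 in replicate 1 and 1.11 in replicate 2, and at distal regions 1.47 and 1.04, so the order of the medians differed between the mice. Regions at starts had a median G and C content of 62.2%, against 53.0% for distal ones. Of 53 annotated starts, 37 had a region in both mice within 1 kb. Starts close together can share a region, as all 7 of Gria2 do, and the share over all annotated starts was not counted. Starts without a region included the only inner start of Grik4, 135794 bases from the first.

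**Figure D3:**
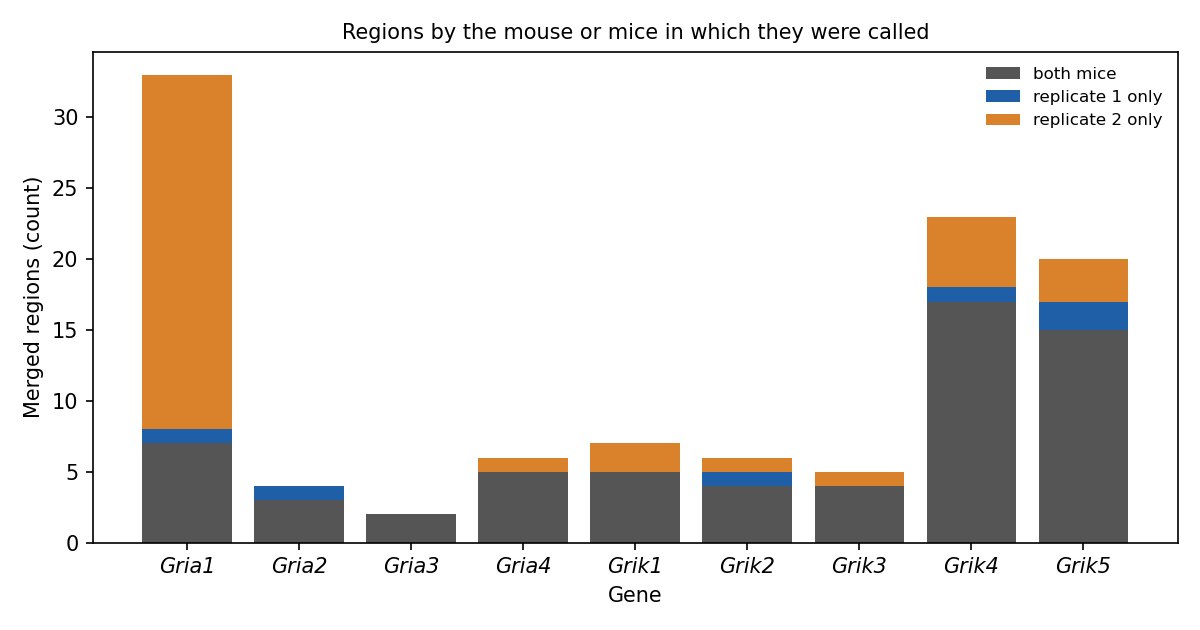
Number of merged regions (vertical axis) over each gene, stacked by whether a peak was called in both mice, in replicate 1 only or in replicate 2 only. Gria1 has 25 regions in replicate 2 only, 21 of them in the low run at its 3′ end, and Grik4 has the most regions in both mice, 17.

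Region density was highest at Grik5 and Grik4. The median of the 9 genes was 0.164 regions in both mice per 10 kb, against 0.352 over all protein-coding genes, which are shorter (median 17.425 kb). AMPA genes had a median of 0.166 and kainate genes of 0.164. Beside genes of 50% to 200% of their own length, Grik5 (1.82 per 10 kb) was at percentile 99.8 and Grik4 (0.381) at 93.3. Gria1 (0.207) was at 57.9, and the other 6 were below 50, down to Gria3 (0.0672) at 13.5. With the gene body alone, Grik5 had 0.960 per 10 kb and was at percentile 96.3, Grik4 was at 94.2 and Gria2 at 50.4, and Gria3 was lowest at 5.15. With only peaks above the median height of their list, Grik5 had 1.70 per 10 kb, but Grik4 (0.157) was below Gria2 (0.212). These percentiles are descriptions of 2 libraries, and no test was made of them.

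**Figure D4:**
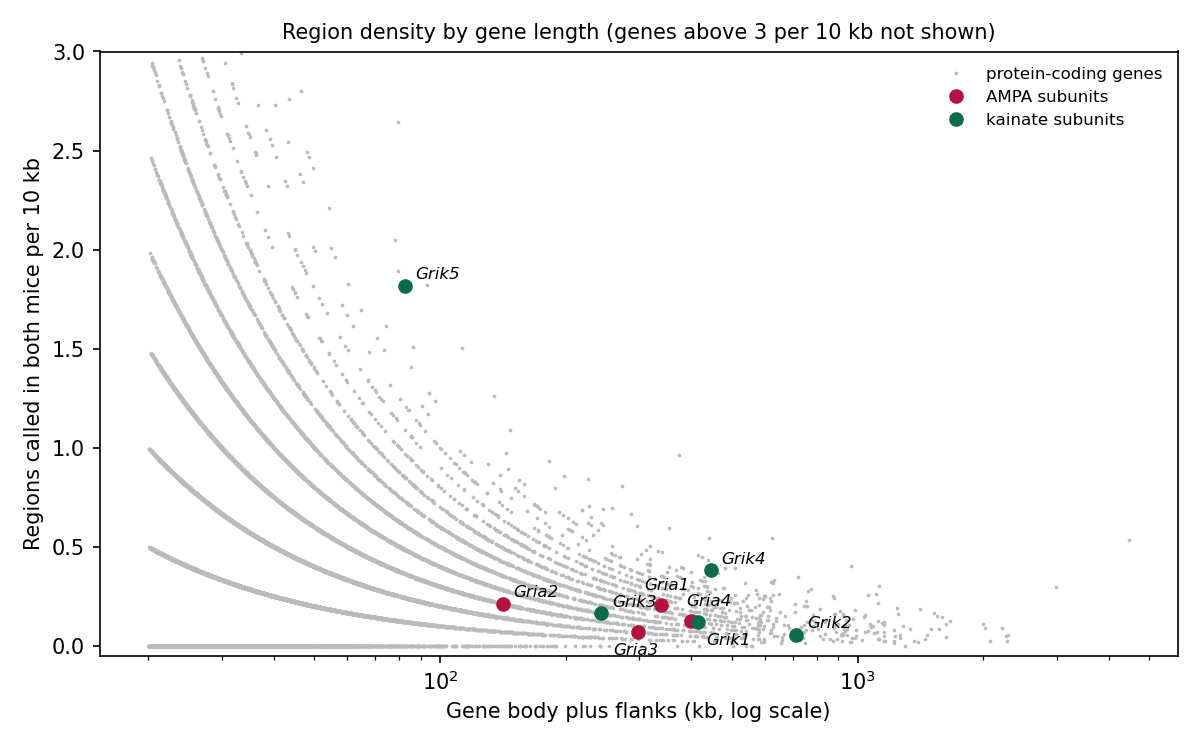
Regions called in both mice per 10 kb (vertical axis) against the length of gene body plus flanks (kb, log scale) for all protein-coding genes up to 3 per 10 kb (grey) and the 9 receptor genes (coloured by class). Grik5 at 1.82 and Grik4 at 0.381 lie above most genes of like length, and Gria3 and Grik2 lie near the bottom.

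The mice matched unevenly over these genes. Of 71 peaks in replicate 1, 65 (91.5%) were met by a peak of replicate 2, against 74.6% over the genome. Of 104 peaks in replicate 2, 66 (63.5%) were met by one of replicate 1, against 74.3%. Without the run at Gria1, the latter became 66 of 83 (79.5%). Of the 44 regions called in 1 mouse, 18 had a peak of the other mouse in its longer, less strict list (40.9%), against 51.3% of the 34537 such regions of the genome. Without the run at Gria1 it was 18 of 23 (78.3%).

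Heights were compared between the mice as log2 of replicate 2 over replicate 1, centred on the median of all regions of the genome with 1 peak in each mouse. Over the 58 such regions of the 9 genes the median was 0.11 with an SD of 0.51, against an SD of 0.48 over the genome. The ratio lay within 1 of the centre in 55 of 58, against 95.6% over the genome. The 3 others were all lower in replicate 2: chr9:42688241-42688440 in intron 3 of Grik4 (2.20 and 0.617, centred ratio -1.40), the intron 1 region of Grik1 (-1.12) and the Grik4 promoter region next to the highest one (-1.11). Grik4 had the lowest median ratio of the 9 genes, -0.29 over 15 regions, with 9 of them below the centre. In Grik5 3 of 15 were below it.

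**Figure D5:**
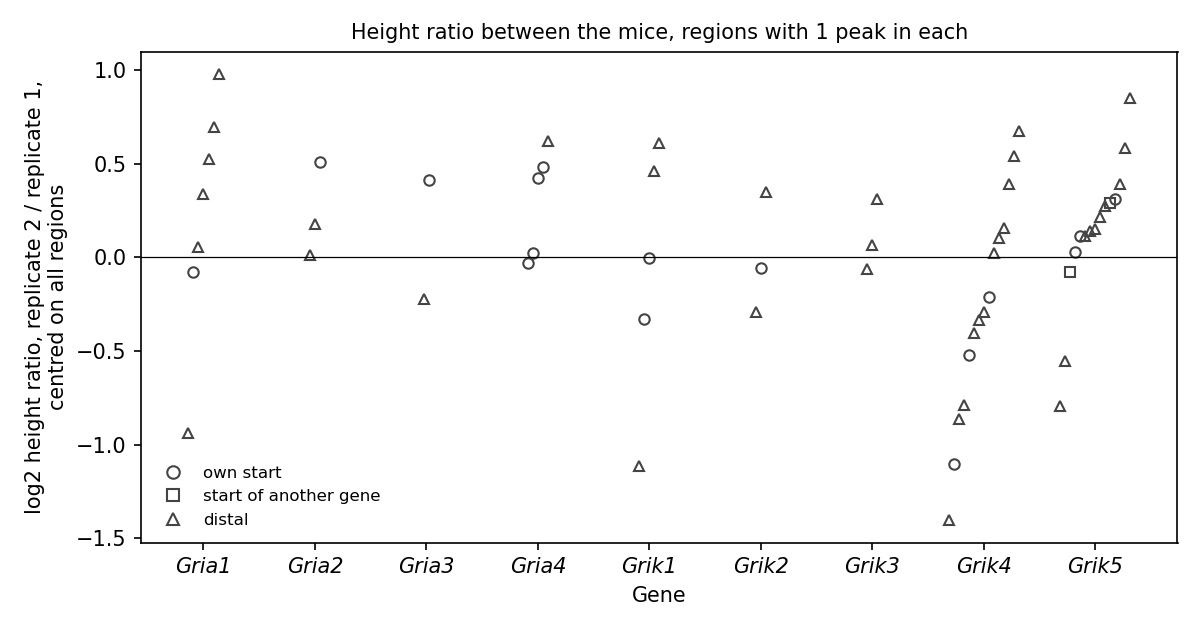
Centred log2 height ratio of replicate 2 over replicate 1 (vertical axis) for each region with 1 peak in each mouse, by gene, with marker shape for its place. Most lie between -1 and 1; regions of Grik4 reach -1.40 and its median is -0.29.

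Footprints numbered 344 in replicate 1 and 429 in replicate 2 over the 9 genes. Of those, 137 (39.8%) and 145 (33.8%) overlapped a footprint of the other mouse by at least 1 bp, against 44.2% and 46.2% over the genome. A footprint of replicate 1 shared with replicate 2 was found in 54 of 62 regions (87.1%), close to the 86.4% over all regions in both mice. It was found in 37 of 41 distal regions and in 15 of 18 regions at own starts. Every region of Gria1, Gria3, Grik3 and Grik5 had one, and 13 of 17 in Grik4. In the Gria3 promoter region the shared footprints of replicate 1 cross its edges, and replicate 2 had 0 footprints inside it.

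Genes whose products work with these receptors were described the same way, from a list of 31. Among 18 auxiliary subunit genes, 16 had a promoter region in both mice, as did 13 of 13 genes for scaffold, trafficking, editing and synaptic partners and delta receptors. The share over all protein-coding genes was 61.1%. By the mean of the mice, which carries the unstated scales, the highest promoters were Pick1, which encodes a PDZ protein that moves GluA2 (9.19 and 6.66), Adar, an RNA-editing enzyme (6.76 and 3.42), and Cacng2, which encodes stargazin (4.65 and 2.69). In single mice, Nptx2 was above Cacng2 in replicate 1 (4.85) and Shisa7 in replicate 2 (3.31). The most regions in both mice were over Gsg1l and Grid1, with 12 each, and Grip1 with 11. Cacng4 and Cacng5, both auxiliary subunits of the TARP family, had no promoter region in both mice; Cacng4 had 3 promoter peaks in replicate 1 only. Median promoter height was 2.58 and 1.55 for auxiliary subunits and 2.40 and 1.79 for the partners. Both were below the medians of all genes with a promoter region, 4.10 in replicate 1 and 2.94 in replicate 2.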

How the data were processed

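DNase-seq libraries from 2 mice of 1 group were used. Peaks, footprints and cut-rate false discovery rates came from the authors, called per library on mm10 (deposited read-me text). Which aligner and which peak caller they ran is not given in the sources used here. Peak height is a signal value deposited by the authors with an unstated scale per library. The deposited cut-rate values are false discovery rates (adjusted p-values, q-values) listed under 0.05 only, and the score of every deposited footprint is 0.01, so footprint positions alone were used. Depth in reads is unknown.

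Each library has 2 peak lists, and the shorter was used. Peaks were merged at 1 bp of overlap and assigned to genes of GENCODE M21 with 10 kb flanks, and starts within 1 kb. Motifs were searched in 300 bp windows. Python 3.11.15, pandas 2.3.3, numpy 2.4.6 and pysam 0.24.0 were used, and merging and overlap were tested on simulated data. All 9 genes are named with their highest promoter and distal region; partners were named by promoter height, number of regions or lack of a promoter region. The members and lists were chosen with earlier results of these data known. Alternatives were other lists, overlaps, windows and height limits, and 1 mouse at a time.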

Additional observations from a re-analysis of the deposited data

How the results depend on the processing

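Of 33 alternative values, 18 stayed within 1.5 times the count or within 1 SD of the mice, and 15 moved (any other value of the height ratio counted as moved). For the share of peaks met that SD was 19.9 percentage points, and all 4 alternatives stayed. For density it was 0.0048 per 10 kb, and 7 alternatives moved and 1 stayed. With limits so unlike, these labels do not show which result is steadier. All 9 genes kept a promoter region in both mice with the longer lists, the 500 bp window and starts of protein-coding transcripts only, and 6 of 9 did when only peaks above the median height of their list were counted; leaving out a mouse measures no sharing. The count of 62 regions became 100 with the longer lists, 32.0 with peaks above the median height, and 71.0 to 104.0 with 1 mouse left out. The density of 0.164 per 10 kb became 0.283 with the longer lists, 0.134 with the gene body alone, 0.136 with 50 kb flanks, 0.0502 with peaks above the median height, 0.123 without regions at any start, and 0.205 to 0.212 with 1 mouse left out. The 137 shared footprints became 344 to 429 with 1 mouse left out, where no sharing is required. The median centred height ratio of 0.11 became 0.056 for regions above the median height, 0.0093 at starts alone and 0.14 for distal regions alone. The mean share of peaks met by the other mouse, 77.5%, became 85.5% without the low run at Gria1, an alternative chosen after seeing the data. Except for the mouse left out, where a call in 1 mouse is enough, the cause was not tested. No paired analysis was possible because the libraries form 1 group. With 2 mice and unknown depth, a region called in 1 mouse only cannot be called absent from the other.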
